A study of Mus musculus with 4 samples.

Results

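The acid-sensing ion channel genes Asic1, Asic2, Asic3 and Asic4 were examined in RNA from mouse retina at E13.5 (E, day of embryonic development), as 4 of the 25239 gene IDs in the deposited tables. The series compared 2 libraries from control retina with 2 libraries labelled Isl1cKO, a conditional knockout of Isl1, which encodes a LIM-homeodomain transcription factor of developing retinal neurons. All libraries were strand-specific and made from poly(A)-selected RNA of dissected retina. The labels give the groups as genotype control and genotype Isl1cKO at the same age, and the strain, the floxed allele, the Cre line, the number of embryos per library and the genotype of the controls are not given in the sources used here. No source says whether the 2 libraries of a group came from separate litters, so any p-value measures only the spread between these libraries. The 4 genes were taken by gene symbol. The family was chosen by a measured value, since Asic4 was 1 of the few genes that an earlier comparison of these same libraries had called higher in those labelled Isl1cKO. The levels of the 4 genes in this contrast are therefore given as a description, without p-values.

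Acid-sensing ion channels are sodium-permeable channels of the degenerin/epithelial sodium channel family. They assemble as trimers of like or mixed subunits and open when the fluid outside the cell turns acid. Asic1 encodes the main proton-gated subunit of central neurons, and Asic2 encodes a partner subunit that alters the gating of mixed channels. The product of Asic3 is best known from sensory neurons. The Asic4 protein is not known to form a proton-gated channel on its own, and it lowers the surface amount of Asic1 channels when the 2 are expressed together. In the mature retina, acid is released together with transmitter at photoreceptor synapses, and acid-sensing channel subunits have been described in retinal neurons.

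The members are paralogs, so their coding sequences are shown side by side around the codons of the Gly-Ala-Ser motif that lines the narrow part of the pore. The sequences below were read from the GENCODE M21 transcript with the longest coding sequence of each gene (mouse genome GRCm38, the assembly also called mm10). Each runs 5′ to 3′ on the coding strand, and the capitals mark the 3 codons of the motif.
Asic1: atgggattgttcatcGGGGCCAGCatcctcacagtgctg
Asic2: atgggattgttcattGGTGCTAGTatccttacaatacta
Asic3: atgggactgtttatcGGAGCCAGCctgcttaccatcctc
Asic4: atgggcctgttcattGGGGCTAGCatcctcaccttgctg

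Each stretch lies within 1 coding exon. They are at chr15:99698647-99698685 (plus strand) for Asic1, chr11:80883446-80883484 (minus strand) for Asic2, chr5:24417140-24417178 (plus strand) for Asic3 and chr1:75473009-75473047 (plus strand) for Asic4. Over these 39 bases Asic4 differed from Asic1 at 6 positions, from Asic2 at 9 and from Asic3 at 11. Over the whole coding sequences, which are 1590 to 1689 bases long, Asic4 was identical to the other members at 63.1% to 63.7% of aligned bases, and Asic1 and Asic2 were the closest pair at 69.0%. The longest run of identical bases that Asic4 shared with another member was 22 bases, with Asic3, and the same maximum held over the full length of these transcripts. This run is shown because it bounds the stretch over which a read could not tell Asic4 from its paralogs.
Asic4 and Asic3: ccagacttttgtgtcctgccag

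The longest run shared by Asic1 and Asic2 was 32 bases. Read length is not given in the sources used here. The deposited tables hold a single row for each member in each library, with no split by isoform, so the alternative first exons of Asic1 and Asic2 cannot be told apart.

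The targeted gene was read first, as a check of the labels. Levels are in TPM, transcript levels per length whose total is the same in every library. Isl1 had 242 and 201 TPM in control replicates 1 and 2, against 321 and 223 TPM in replicates 1 and 2 labelled Isl1cKO. Its transcript did not fall with the label (log2 fold change 0.28, adjusted p = 0.683 in limma), and exons cannot be read separately. All directions below rest on the labels. Aligned sequence ranged from 12.6 to 14.3 gigabases per library, as derived from the deposited coverage and FPKM. Isl1cKO replicate 2 had the least and also stood apart in red blood cell transcripts, where 6 markers summed to 201 TPM, against 1229 TPM in Isl1cKO replicate 1 and 2375 and 3286 TPM in the controls. Values without that library are given beside the members below.

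Asic4 (chromosome 1, 75450510 to 75474340, plus strand) had 2.34 and 2.00 TPM in control replicates 1 and 2. Replicates 1 and 2 labelled Isl1cKO had 9.25 and 7.45 TPM. Both libraries labelled Isl1cKO lay above both controls, and the lowest of them was 3.18 times the highest control, whereas replicates of a group differed by at most 1.24 times. The control mean was 2.17 ± 0.240 TPM and the Isl1cKO mean 8.35 ± 1.28 TPM (SD, n = 2 each), a ratio of means of 3.84. On the scale of log2(TPM + 1), which understates the change of low genes, the fold change was 1.55 (SE 0.13). This was the sixth highest value among the 13984 genes with at least 1 TPM in at least 2 libraries. Without Isl1cKO replicate 2 it was 1.69, and without Isl1cKO replicate 1 it was 1.41. The mean coverage behind these levels was 12.3 and 9.91 reads per base in the controls and 49.4 and 36.9 reads per base in the libraries labelled Isl1cKO.

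Asic1 (chromosome 15, 99670377 to 99701130, plus strand) was the highest member in every library, with 12.1 and 12.6 TPM in the controls and 9.46 and 8.51 TPM in Isl1cKO replicates 1 and 2. The groups did not overlap, and here the libraries labelled Isl1cKO were the lower ones. The means were 12.3 ± 0.412 and 8.98 ± 0.670 TPM (SD, n = 2 each), and the log2 fold change was -0.42 (SE 0.09). Without Isl1cKO replicate 2 it was -0.35.

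Asic2 (chromosome 11, 80880163 to 81968396, minus strand) had control levels of 4.30 and 2.92 TPM and Isl1cKO levels of 2.68 and 1.81 TPM. The groups were separated only narrowly, since the lower control was 1.09 times the higher Isl1cKO library while replicates of a group differed by 1.47 and 1.48 times. The difference between the groups was therefore smaller than the spread between replicates when the nearest libraries were set against each other. The log2 fold change was -0.50 (SE 0.21). It was -0.29 without control replicate 1, -0.31 without Isl1cKO replicate 2, and -0.72 without control replicate 2.

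Asic3 (chromosome 5, 24413451 to 24417834, plus strand) was the lowest member, with 1.32 and 1.18 TPM in control and 0.920 and 0.831 TPM in Isl1cKO. It reached 1 TPM in the controls alone, so it entered the comparison only through the group in which it was higher. Its log2 fold change was -0.27 (SE 0.08), and -0.23 without Isl1cKO replicate 2. The mean TPM was 30.2% lower in the libraries labelled Isl1cKO, against 27.2% lower for Asic1 and 37.8% lower for Asic2. At these levels the coverage was 6.90 and 5.85 reads per base in the controls and 4.91 and 4.12 reads per base in Isl1cKO.

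**Figure D1:**
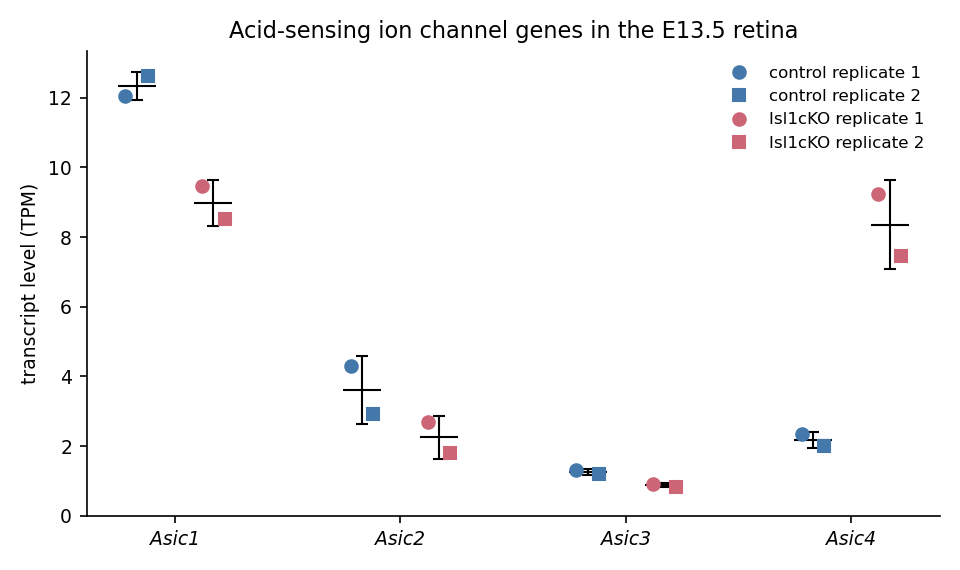
Level in TPM (vertical axis, linear) of the 4 acid-sensing ion channel genes in each library; circles are replicate 1, squares replicate 2, and the black bars give the mean and SD of 2 libraries. Asic4 is at 2.00 to 2.34 TPM in control and 7.45 to 9.25 TPM in Isl1cKO, while Asic1, Asic2 and Asic3 are each lower in both Isl1cKO libraries than in both controls.

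Of the 4 members, only Asic4 passed an adjusted p-value of 0.05 in limma over all tested genes, a call that was lost when any 1 library was left out. Over all 13984 genes this threshold was passed by 0.493%, with 0.0286% passing as higher and 0.465% as lower in Isl1cKO. Since the family was chosen with this contrast known, nothing is read from that count. The values of 1 member lay wholly higher in Isl1cKO, as did those of 14.9% of all tested genes, and the values of the other 3 lay wholly lower, as did those of 30.0% of all tested genes. For Asic3 this separation follows from how it passed the filter, since it reached 1 TPM in the controls alone. Separation of the groups alone thus does not set Asic1, Asic2 or Asic3 apart from other genes.

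The make-up of the family differed between the groups more than its sum did. Since the family was chosen for the higher Asic4, the share of Asic4 is a description only. The 4 genes summed to 20.0 and 18.7 TPM in control replicates 1 and 2, and to 22.3 and 18.6 TPM in Isl1cKO replicates 1 and 2. These sums overlapped between the groups. Asic4 made up 11.7% and 10.7% of the sum in the controls, and 41.5% and 40.0% in the libraries labelled Isl1cKO. The share of Asic1 was 60.2% and 67.4% in the controls and 42.4% and 45.8% in Isl1cKO. The sum of the other 3 members was 17.7 and 16.7 TPM in the controls and 13.1 and 11.1 TPM in Isl1cKO, so the higher Asic4 offset the lower values of its paralogs in the total. A sum of transcript levels does not give the amount or the subunit mix of channel protein.

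**Figure D2:**
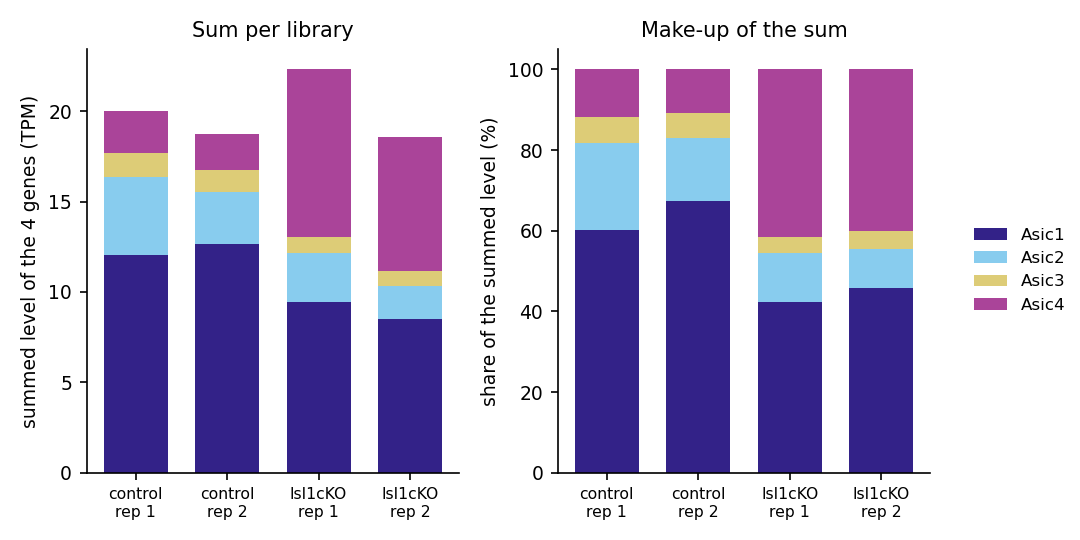
Stacked bars for the 4 libraries, showing on the left the summed level of the 4 genes in TPM and on the right the share of each gene in that sum in percent. The sums lie between 18.6 and 22.3 TPM in all libraries, and the Asic4 segment grows from about 11% of the bar in control to about 41% in Isl1cKO.

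Ratios within a library do not depend on how libraries are scaled to each other. The ratio of Asic4 to Asic1 in TPM was 0.195 and 0.159 in the controls and 0.978 and 0.875 in the libraries labelled Isl1cKO. The ratio of Asic3 to Asic1 stayed in a narrow range in all 4 libraries, at 0.110, 0.0937, 0.0973 and 0.0976 in the same order. The ratio of Asic2 to Asic1 varied more between replicates than between groups, at 0.357 and 0.231 in the controls and 0.284 and 0.213 in Isl1cKO. Relative to Asic1, Asic4 was the only member whose ratio lay wholly higher in 1 group. The higher Asic4 had led to the choice of the family, so this ratio restates that choice and is no separate result. In the controls the order of levels per transcript length was Asic1, Asic2, Asic4 and Asic3, with no overlap between neighbours in that order. In the libraries labelled Isl1cKO, Asic1 and Asic4 overlapped across libraries, and Asic2 and Asic3 followed below them.

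The chromosomal neighbourhood of each member was examined next, since neighbouring genes took no part in choosing the family. Within 100 kb of the 4 members lie 38 other genes, of which 23 were tested. In limma 0 passed at an adjusted p-value under 0.05, beside 0.493% of all tested genes. An unadjusted p-value under 0.05 was found for 0, beside 12.1% of all tested genes. Asic4 has Gmppa, which encodes a regulatory subunit of GDP-mannose synthesis, 7331 bases to its left. Gmppa had 40.3 and 32.1 TPM in control and 37.8 and 41.6 TPM in Isl1cKO, with overlapping groups. On the right, 229 bases away and on the opposite strand, lies Chpf, a chondroitin-polymerizing factor. Chpf had 14.0 and 15.2 TPM in control and 12.9 and 14.5 TPM in Isl1cKO, again overlapping. The log2 fold changes of the 8 tested neighbours of Asic4 ranged from -0.33 for Tmem198 to 0.15 for Inha, against 1.55 for Asic4 itself. Among them, Slc4a3, an anion exchanger that moves bicarbonate, had a log2 fold change of -0.16 (adjusted p = 0.579 in limma).

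The neighbours of the other members were read in the same way. Smarcd1, a chromatin-remodelling subunit 1157 bases from Asic1, had a log2 fold change of -0.07, and Racgap1 on the other side had -0.15. Next to Asic3, the kinase gene Cdk5 lies 394 bases away on the opposite strand, with a log2 fold change of -0.07, and the transporter gene Abcb8 had 0.05. Asic2 overlaps the predicted genes 1700071K01Rik, listed at 0 in all libraries, and 5530401A14Rik, at no more than 0.167 TPM in any library. Its nearest listed neighbours Spaca3 and Ccl2 were listed at 0 in all libraries.

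**Figure D3:**
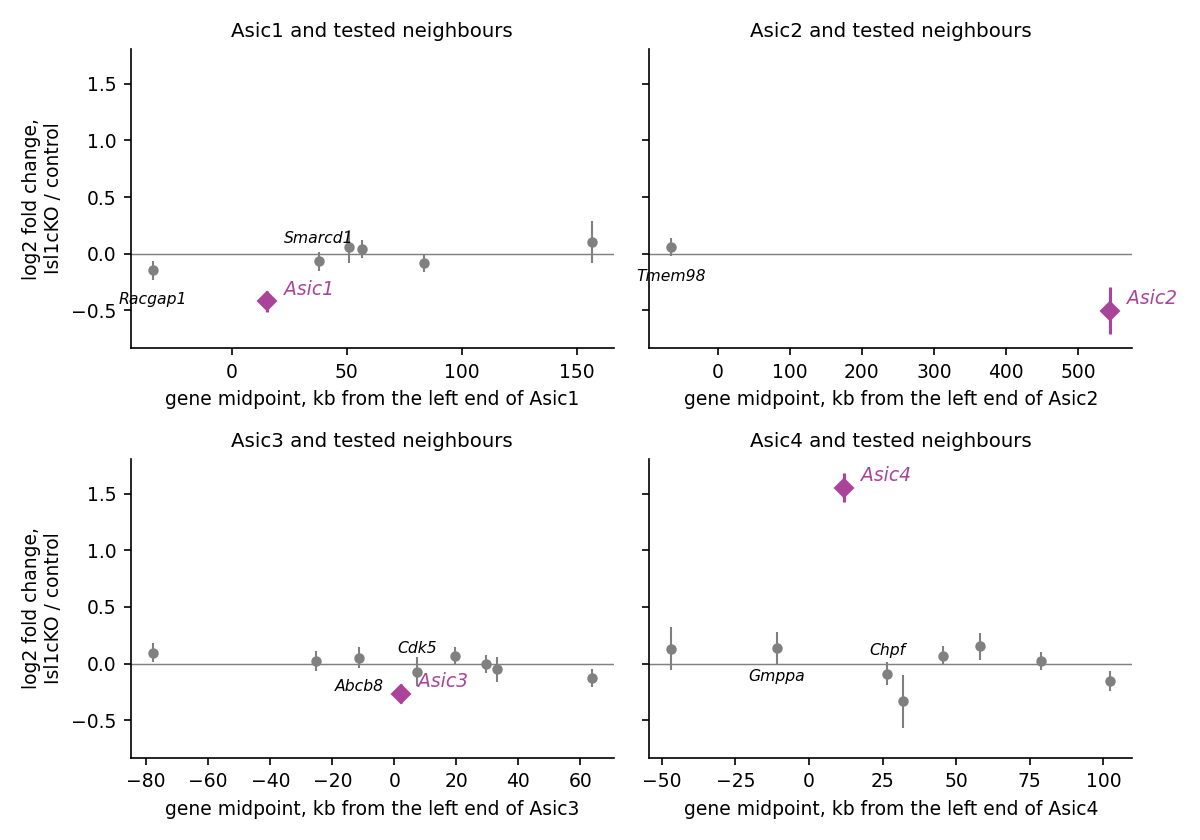
Log2 fold change of Isl1cKO over control on the log2(TPM + 1) scale (vertical axis, bars are SE) for each member (diamonds) and its tested neighbours within 100 kb (grey circles), placed by the midpoint of the gene in kb from the left end of the member. Asic4 is at 1.55, and its 8 tested neighbours lie between -0.33 and 0.15.

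Promoter windows are shown because 2 libraries were labelled for loss of a homeodomain factor, a class of protein that binds sites with a TAAT core. RefSeq windows of the assembly GRCm38.p6 were matched by symbol for Asic1, Asic2 and Asic3, and Asic4 was not matched. The 250 bases before the annotated start are shown, 5′ to 3′ in the direction of the gene, with each TAAT or its reverse complement ATTA in capitals. The window of Asic1 (chr15:99691974-99692223, plus strand) lies before an internal start of the gene. That of Asic2 (chr11:81968397-81968646, minus strand) lies before its upstream start, and that of Asic3 is chr5:24413201-24413450 (plus strand).
Asic1: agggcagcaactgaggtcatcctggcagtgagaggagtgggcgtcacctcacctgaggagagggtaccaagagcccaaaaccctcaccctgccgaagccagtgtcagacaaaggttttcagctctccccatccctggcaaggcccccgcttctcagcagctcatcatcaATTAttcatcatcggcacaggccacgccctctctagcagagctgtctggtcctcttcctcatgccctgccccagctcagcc
Asic2: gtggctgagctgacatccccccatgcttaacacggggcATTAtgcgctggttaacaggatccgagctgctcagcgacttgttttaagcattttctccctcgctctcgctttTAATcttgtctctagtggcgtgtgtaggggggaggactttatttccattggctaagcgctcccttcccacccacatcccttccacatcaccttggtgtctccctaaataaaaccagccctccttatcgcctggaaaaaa
Asic3: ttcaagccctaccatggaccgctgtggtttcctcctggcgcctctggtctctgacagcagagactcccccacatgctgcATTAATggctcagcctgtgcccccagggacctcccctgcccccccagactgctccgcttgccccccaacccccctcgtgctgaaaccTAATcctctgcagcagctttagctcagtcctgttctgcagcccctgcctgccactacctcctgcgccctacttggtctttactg

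On both strands, TAAT matched once in the Asic1 window, 2 times in this Asic2 window and 3 times in the Asic3 window, where 2 of the matches overlap. A second Asic2 window, before its downstream start, held 0 matches. Of 32851 RefSeq windows of the same length, 54.9% held at least 1 match. The longer form CTAATG, known for Isl1 and searched on both strands, contains TAAT. It was in none of the 4 windows of Asic1, Asic2 and Asic3, and in 6.36% of all windows. These are matches of letters and describe no binding.

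The genes whose profile over the 4 libraries was most like that of Asic4 were then named. Likeness was the root mean square difference of log2(TPM + 1), centred on each gene's mean, and 13101 genes were compared. The nearest was Robo3 (0.11), a receptor of axon guidance at the midline, at 2.14 and 1.42 TPM in the controls and 8.97 and 6.22 TPM in Isl1cKO. Anxa11 (0.16), a calcium-dependent lipid-binding annexin, had 2.58 and 2.38 TPM in control and 8.39 and 6.24 TPM in Isl1cKO. Sema3e (0.22), a secreted semaphorin, Opcml (0.23), a cell adhesion molecule, and Barhl1 (0.23), a homeodomain transcription factor, followed. Their log2 fold changes were 1.14, 1.10 and 2.00. Barhl1 had 0.557 and 0.620 TPM in the controls and 6.01 and 4.74 TPM in Isl1cKO. It thus entered the comparison only through the group in which it was higher. In each of these 5 genes, as in Asic4, Isl1cKO replicate 1 held the highest value and both controls the lowest. Because they were picked for likeness to a profile of this contrast, no test is given for them.

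**Figure D4:**
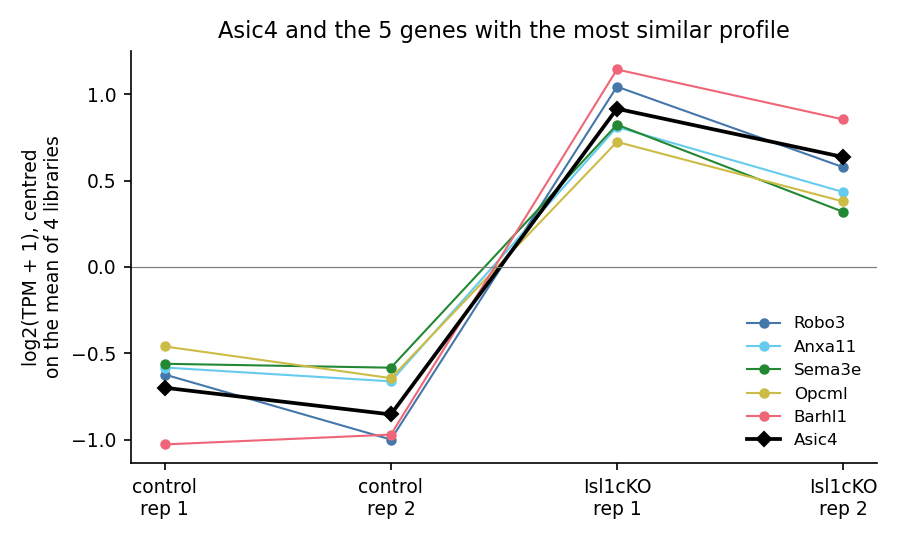
Profiles of Asic4 (black) and the 5 genes closest to it over the 4 libraries, as log2(TPM + 1) centred on each gene's mean (vertical axis). All 6 lines are below 0 in both controls and above 0 in both Isl1cKO libraries, with replicate 1 above replicate 2.

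For Asic1 the nearest profiles were those of Insig1, Ttbk1, Zic4, Tom1l1 and Creb5, with differences of 0.017 to 0.021. For Asic2 they were Tbc1d10c, Cldn5, Map2, Camk2b and Fam129c (0.020 to 0.041), which include the neuronal microtubule gene Map2 and the endothelial junction gene Cldn5. For Asic3 they were the chaperone gene Hspa8, then Ywhah, Bicd2, Srd5a3 and Lin7a (0.0080 to 0.012). The nearest gene to each of Asic1, Asic2 and Asic3 was thus at 0.0205 or less, against 0.11 for Asic4, whose values spread more widely over the libraries.

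Other genes of acid sensing were read from lists. Of the 4 other degenerin and epithelial sodium channel genes, 0 were tested. Asic5 was listed at 0 in every library, and Scnn1a, the alpha subunit of the epithelial sodium channel, had 0.839 and 1.40 TPM in control and 0.898 and 0.892 TPM in Isl1cKO.

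Of 14 partners and modulators of acid-sensing channels, 12 were tested. In limma 0 passed at an adjusted p-value under 0.05, beside 0.493% of all tested genes. An unadjusted p-value under 0.05 was found for 4, beside 12.1% of all tested genes. The median log2 fold change of the 12 was -0.11, beside -0.05 over all tested genes. S100a10 (p11), which helps carry Asic1 channels to the cell surface, had 134 and 124 TPM in control and 36.3 and 48.1 TPM in Isl1cKO. The groups were well separated, with a log2 fold change of -1.60 (SE 0.16) and an adjusted p of 0.0557. Camk2a, a calcium-dependent kinase that phosphorylates Asic1, had a log2 fold change of 0.47 (adjusted p = 0.331). Pick1, a PDZ-domain protein that binds Asic1 and Asic2, had 71.1 and 73.1 TPM in control and 71.3 and 63.9 TPM in Isl1cKO (log2 fold change -0.09, adjusted p = 0.756).

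Of 13 other proton-sensing channels and receptors, 12 were listed and 4 were tested. In limma 0 passed at an adjusted p-value under 0.05, beside 0.493% of all tested genes. An unadjusted p-value under 0.05 was found for 1, beside 12.1% of all tested genes. Trpv1, the acid- and heat-gated channel of pain neurons, and Otop1, a proton channel, were listed at 0 in every library. Kcnk1, a potassium leak channel, had 57.4 and 50.4 TPM in control and 68.2 and 67.9 TPM in Isl1cKO (log2 fold change 0.33, adjusted p = 0.325). Pacc1, a chloride channel opened by acid, had 0.13 (adjusted p = 0.690), and the proton-sensing receptor gene Gpr4 had 0.19 (adjusted p = 0.660).

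Of 14 acid-base transport genes, 12 were tested and 0 passed in limma at an adjusted p-value under 0.05, beside 0.493% of all tested genes. An unadjusted p-value under 0.05 was found for 3, beside 12.1% of all tested genes. Of the 12, 7 had a log2 fold change below 0, and the median was -0.06, beside -0.05 over all tested genes. Car2, a cytosolic carbonic anhydrase with the lowest p-value of the list, had 9.45 and 8.77 TPM in control and 5.37 and 6.06 TPM in Isl1cKO (log2 fold change -0.59, adjusted p = 0.146). Slc16a3, a lactate and proton exporter, had 54.6 and 35.4 TPM in control and 73.9 and 143 TPM in Isl1cKO. Its groups did not overlap, but its replicates differed widely (log2 fold change 1.21, SE 0.38, adjusted p = 0.352). Car14, a membrane carbonic anhydrase, had 83.6 and 102 TPM in control and 128 and 169 TPM in Isl1cKO (0.67, adjusted p = 0.295). Bsg, the chaperone of lactate transporters, had a log2 fold change of 0.27 (adjusted p = 0.472). Over these lists and the neighbours together, 49 genes were tested and 0 passed in limma, beside 0.493% of all tested genes. Of the 49, 8 had an unadjusted p-value under 0.05, or 16.3%, beside 12.1% of all tested genes.

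Cell type markers were read beside the members, since in bulk tissue fewer cells of a type and less RNA per cell cannot be told apart. The retinal identity of the samples was seen in the progenitor factors, with 8 markers summing to 4091 TPM or more in the controls and 3726 to 3993 TPM in Isl1cKO. Of 12 retinal ganglion cell markers, 11 were lower in both libraries labelled Isl1cKO, as were 30.0% of all tested genes, and the list summed to 3803 and 3255 TPM in control and 1929 and 1328 TPM in Isl1cKO. The exception was Pou4f2, with overlapping groups. In limma 0 of the 12 passed at an adjusted p-value under 0.05, beside 0.493% of all tested genes. An unadjusted p-value under 0.05 was found for 11, beside 12.1% of all tested genes. The direction of Asic1, Asic2 and Asic3 was not particular to this list, since 11 of 13 marker lists had a lower sum in both libraries labelled Isl1cKO than in both controls. The amacrine cell markers summed to 32.5 and 20.4 TPM in control and 19.6 and 14.0 TPM in Isl1cKO. The photoreceptor precursor markers summed to 256 and 220 TPM in control and 219 and 166 TPM in Isl1cKO. For pigment epithelium the sums were 40.6 and 34.7 TPM against 34.2 and 25.1 TPM, and for periocular mesenchyme 21.3 and 16.8 TPM against 15.0 and 13.3 TPM. For endothelium they were 81.4 and 63.5 TPM against 62.5 and 59.3 TPM. In the amacrine, photoreceptor precursor, pigment epithelium and endothelium lists the nearest libraries of the 2 groups lay close together. The part of any of these lists in the lower levels of Asic1, Asic2 and Asic3 was not tested.

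Of the 13 marker lists, that of microglia alone had a sum that was higher in both libraries labelled Isl1cKO than in both controls, the direction of Asic4. The summed level of 6 microglia markers was 39.7 and 38.8 TPM in the controls and 49.3 and 59.4 TPM in Isl1cKO replicates 1 and 2. The 4 horizontal cell markers overlapped between groups, at 51.4 and 46.1 TPM against 59.9 and 40.8 TPM. The part of either list in the Asic4 level was not tested. Markers of 3 tissues that dissection could carry over were lower in sum. Peripheral sensory neuron markers, of which 5 of 6 were listed, summed to 6.11 and 7.27 TPM in the controls and 1.38 and 1.55 TPM in Isl1cKO, with Trpv1 at 0 throughout. The 6 markers of forebrain outside the eye summed to 3.40 and 2.45 TPM in the controls and 1.90 and 0.950 TPM in Isl1cKO, with Nkx2-1 at 0 throughout. The 7 lens markers summed to 155 and 189 TPM in the controls and 8.68 and 5.21 TPM in Isl1cKO, and 4 of them passed in limma as lower, as did 0.465% of all tested genes.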

How the data were processed

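The 4 libraries were assigned to control and Isl1cKO by their titles. The submitters' processing notes name Trimmomatic, FastQC, HISAT2, SAMtools, StringTie, DESeq2 and the build mm10, with no version, role or order. Columns of coverage (reads over a base, averaged along the gene), FPKM and TPM stand in each table, per the file headers. The deposited coverage carries no depth scaling and entered only statements on depth. The deposited FPKM served in an alternative and in the depth estimate, the median ratio of coverage to FPKM. The deposited TPM, which summed to 1000000 per library, were summed over repeated rows of a gene ID. They are not counts, depth in reads is unknown, and no count model was fitted. Whether the authors counted by strand is not given in the sources used here.

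Values of log2(TPM + 1) for the 13984 genes at 1 TPM or more in 2 or more libraries were fitted on genotype alone, by limma 3.58.1 under R 4.3.3, with a constant variance prior and Benjamini-Hochberg adjustment over all tested genes at 0.05. The model code was also run on simulated data, and no statement here rests on that run. The members, gene lists, neighbour window (100 kb) and rules were chosen with earlier results of these data known. Named were all members, overlapping and nearest neighbours and neighbours past the threshold, the 5 genes nearest in profile (predicted genes and pseudogenes left out), and, from each list, genes past the threshold or else the 2 largest changes, and the 2 highest levels. Tmem198, Inha, Slc4a3, Asic5, Scnn1a, Trpv1, Car2, Otop1, Nkx2-1 and Pou4f2 were named after their values were seen. Tmem206 is an older symbol of Pacc1 and was not listed. Coding sequences were aligned globally with Biopython 1.88.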

Additional observations from a re-analysis of the deposited data

How the results depend on the processing

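No member changed direction under any of the 9 alternatives run for it, but for most of these that outcome was fixed in advance. With groups that do not overlap, leaving out a library or changing the pseudocount cannot reverse a direction. The replicate block and the use of only the largest row of a gene ID leave these fold changes as they were. With FPKM in place of TPM, whose smaller values give the pseudocount more weight, the log2 fold changes were -0.33 for Asic1, -0.33 for Asic2, -0.13 for Asic3 and 1.21 for Asic4. At a pseudocount of 0.1 they were -0.47 for Asic3 and 1.89 for Asic4. Leaving out each library in turn gave -0.49 to -0.35 for Asic1, -0.72 to -0.29 for Asic2, -0.31 to -0.22 for Asic3 and 1.41 to 1.69 for Asic4. The call of Asic4 was lost at the pseudocount of 0.1, with no filter on low values and without any single library. An earlier call of Asic4 in these libraries had led to the choice of the family, so its holding elsewhere is not counted as support.

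The 69 genes called over all genes were 44 at a pseudocount of 0.1, 15 with no filter beyond a value above 0, 109 with FPKM and 110 with a mean-variance trend. They numbered 10 to 37 without each library in turn, where a group holds 1 library that is assumed to vary like the others, fewest without control replicate 1. Same-numbered libraries deviated together only weakly (r = 0.126 across genes), and since the 2 pairs carry no label of litter or day they were treated as unpaired. With the replicate block 265 genes were called and the members' fold changes were the same. Among list and neighbour genes the count of 0 became 1 with FPKM, with the mean-variance trend and with the replicate block, in each case S100a10 as lower. The causes of these shifts were not tested. Without read counts, genes listed at 0 have no detection limit here.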
